A study of Rattus norvegicus with 6 samples.

Results

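The mitochondrial ribosomal protein genes were taken as every gene symbol of the count table that begins with Mrpl or Mrps followed by a number. The rule found 74 of the 37203 genes in the table, and 70 of them had enough counts to be tested. By the place of the protein in the ribosome, 46 belonged to the large subunit (44 tested) and 25 to the small subunit (25 tested). Mrps18a and Mrps30 were counted with the large subunit, where structures place their proteins. Mrps36 was counted with neither subunit, because RefSeq lists this symbol as an older name of Kgd4, a subunit of the 2-oxoglutarate dehydrogenase complex. The remaining symbols, Mrps17-ps1 and Mrps21l, are a pseudogene and a like copy.

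The counts came from 6 libraries of total RNA from the alveolar tissue that holds the teeth in the jaw, of rats in which teeth had been moved orthodontically. The study asked how corticision, a small cut into the bone meant to speed up such movement, changes the transcripts of this tissue. Titles name 3 case libraries (numbered 5, 6 and 9) and 3 control libraries (numbered 5, 6 and 10), while the source field gives tooth movement without corticision for the case libraries and with it for the control libraries. Groups are therefore called case and control as titled, every difference is case minus control, and which group had the cut should be read with this conflict in mind. All 6 libraries shared the tooth movement, and no untreated tissue was among them. Strain, age, sex and time after surgery were not given in the sources used here, and the labels do not state 1 animal per library. The p-values therefore cover only the spread among these 6 samples, part or all of which may be technical. The osteoblast markers, among them Col1a1, Bglap and Ibsp, were all detected in each library (7 of 7). Their summed level was 42846 to 83978 CPM, the count scaled to a common library size. This sum rests mostly on Col1a1, which alone was at 35945 to 74554 CPM.

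The mitochondrial ribosome translates the few messenger RNAs that are made from mitochondrial DNA, all of which encode subunits of the respiratory chain and of ATP synthase. Its ribosomal RNAs are made inside the organelle, whereas all of its proteins are encoded in the nucleus, made in the cytosol and imported. Some of these proteins descend from those of bacterial ribosomes and others exist only in mitochondrial ribosomes. In bone, osteoclasts are known for their many mitochondria. Promoters of such nuclear genes are known to be bound by ETS family factors such as GABP, by NRF1 and by YY1.

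Promoter sequences are shown because motifs of these factors were found in a larger share of the family than of all genes, although 30 of 59 windows held none of them. RefSeq (assembly GRCr8) gave a window of 300 bases, from 250 before to 50 after a gene start, for 57 of the 74 genes, in 59 windows. The windows of 4 members are printed: Mrps10 and Mrpl20, the members whose case and control libraries did not overlap, Mrps18b, a paralog described with its family, and Mrpl30, the member with the widest range between libraries. Capitals mark matches to the ETS motif CCGGAAG, the NRF1 motif (GCGCA, any base, then GCGC) and the YY1 motif AAGATGGCG on either strand. The windows lie at chr9:21122404-21122703 on the minus strand for Mrps10, at chr5:171690948-171691247 on the plus strand for Mrpl20, at chr20:2842756-2843055 on the plus strand for Mrps18b and at chr9:47620977-47621276 on the plus strand for Mrpl30.
Mrps10: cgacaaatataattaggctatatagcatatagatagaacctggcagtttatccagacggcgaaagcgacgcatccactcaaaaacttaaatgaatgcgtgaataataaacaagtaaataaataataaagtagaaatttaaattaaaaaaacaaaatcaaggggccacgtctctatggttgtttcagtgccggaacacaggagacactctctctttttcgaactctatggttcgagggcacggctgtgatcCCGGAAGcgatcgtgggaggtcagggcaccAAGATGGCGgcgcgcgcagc
Mrpl20: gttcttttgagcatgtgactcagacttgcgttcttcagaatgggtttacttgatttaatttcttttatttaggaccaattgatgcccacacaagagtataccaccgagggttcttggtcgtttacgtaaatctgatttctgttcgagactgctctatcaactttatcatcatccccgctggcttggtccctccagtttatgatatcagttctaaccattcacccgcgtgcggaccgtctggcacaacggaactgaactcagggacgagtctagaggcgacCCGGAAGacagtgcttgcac
Mrps18b: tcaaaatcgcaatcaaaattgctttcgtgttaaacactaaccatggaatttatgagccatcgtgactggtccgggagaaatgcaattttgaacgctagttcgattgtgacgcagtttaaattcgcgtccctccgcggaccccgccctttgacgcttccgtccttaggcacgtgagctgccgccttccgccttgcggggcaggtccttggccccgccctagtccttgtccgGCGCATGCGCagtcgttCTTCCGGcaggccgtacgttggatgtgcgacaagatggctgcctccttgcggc
Mrpl30: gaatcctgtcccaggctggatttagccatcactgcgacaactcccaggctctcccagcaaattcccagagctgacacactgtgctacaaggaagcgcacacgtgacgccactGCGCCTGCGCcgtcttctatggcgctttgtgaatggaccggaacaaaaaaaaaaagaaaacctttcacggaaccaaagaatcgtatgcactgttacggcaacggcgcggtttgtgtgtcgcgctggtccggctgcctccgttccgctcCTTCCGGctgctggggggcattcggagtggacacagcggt
The Mrps10 window holds an ETS match just ahead of a YY1 match, both close to the gene start. That of Mrpl20 holds a single ETS match near its end. In Mrps18b an NRF1 match stands a few bases ahead of an ETS match, and in Mrpl30 these motifs lie far apart.

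Across the family, the ETS motif was found in 19 of 59 windows (32.2%), against 8.74% of all RefSeq windows and 11.5% of the windows of genes in the count table. The YY1 motif was found in 9 windows (15.3%), against 1.73% and 2.26%. The NRF1 motif was found in 8 windows (13.6%), against 4.25% and 6.23%. Each of these shares was above both of its background shares. The GC box GGGCGG was at 49.2%, above the 33.1% of all RefSeq windows but near the 45.9% of genes in the count table. The backgrounds include genes with too few counts to be tested. Shares over tested genes alone were not computed, so the excess cannot be called particular to this family. Median GC content was 55.7% for the family and 56.3% for genes in the count table, and no motif contains another. ETS and NRF1 matches occurred together in 3 windows, those of Mrpl30, Mrps18b and Mrps26. All 9 YY1 matches began between 17 bases before and 30 bases after the gene start, and 20 of 21 ETS matches began within 100 bases of it, compared with 5 of 9 NRF1 matches.

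**Figure D1:**
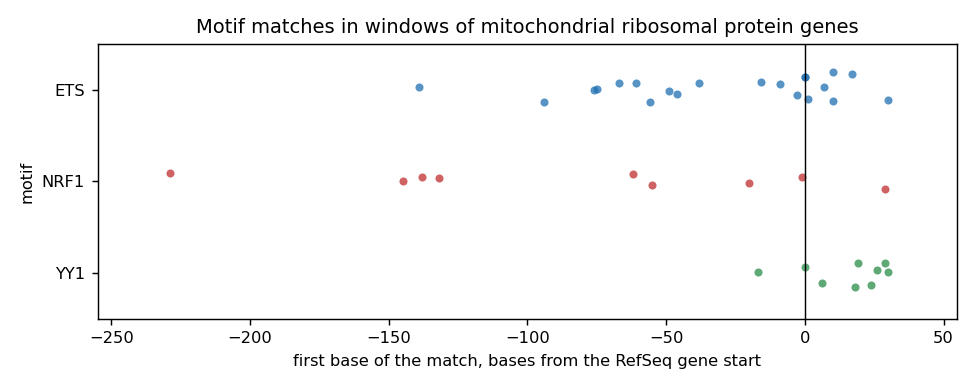
Position of the first base of each motif match (horizontal axis, bases from the RefSeq gene start) in the 59 windows, with one point per match and the motifs in separate lanes (height within a lane has no meaning). The 9 YY1 matches gather between -17 and 30, the 21 ETS matches reach from -139 to 30 and the 9 NRF1 matches from -229 to 29.

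A gene on the other strand with its start within 1000 bases was found for 18 of the 59 windows (30.5%). This held for 12.8% of the windows of genes in the count table, tested or not. One such pair lies within the family: Mrpl46 of the large subunit and Mrps11 of the small subunit start back to back. Other neighbours were Ndufb5, a complex I subunit, beside Mrpl47, the proteasome subunit gene Psma2 beside Mrpl32, the condensin gene Ncapd2 beside Mrpl51, and Fau, which encodes a cytosolic ribosomal protein, beside Mrpl49. The change between groups was also read by motif, as a description. The median log2 fold change was -0.07 for the 17 tested members with an ETS match and 0.04 for the 38 without, 0.09 for 8 with an NRF1 match and -0.02 for 47 without, and -0.00 for 8 with a YY1 match and 0.02 for 47 without.

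The libraries held 10886303 to 14433740 counts each. A gene with no count could still be present at up to 3 counts by counting error alone. This floor equals 0.208 to 0.276 CPM by library totals, without TMM scaling. A tested member held a median of 342.5 counts per library, and 61 of 70 stayed between 100 and 1000 counts in all 6 libraries. Mean levels of tested members ran from 2.23 to 114 CPM with a median of 28.9, and 69 of 70 reached 5 CPM. The median log2 fold change of all 16066 tested genes was -0.02, and it was -0.01 with upper-quartile scaling and 0.03 with library totals alone. The libraries numbered 5 stood apart for this family, as described below, and control 5 also held 3799 CPM of oral epithelium markers such as Krt5, against 26.6 to 61.2 CPM in the other libraries.

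Together the 74 genes took a small share of each library, from 0.173% to 0.255%. In the case libraries they took 0.173% of counts in case 5 (95% Wilson interval 0.171 to 0.175), 0.242% in case 6 (0.240 to 0.245) and 0.255% in case 9 (0.252 to 0.258). In the control libraries the shares were 0.205% in control 5 (0.203 to 0.208), 0.224% in control 6 (0.222 to 0.227) and 0.220% in control 10 (0.218 to 0.223). The groups overlapped, with 0.223% ± 0.0442 in case and 0.217% ± 0.0101 in control (SD, n = 3 each), and the lowest library of each group was the one numbered 5. In bulk tissue, fewer cells of a type rich in these transcripts and less of the transcripts per cell cannot be told apart. Leaving 158 abundant genes (collagen, haemoglobin, mitochondrially encoded and cytosolic ribosomal protein genes) out of the total gave 0.269% ± 0.0420 in case and 0.272% ± 0.0144 in control, with case 5 and control 5 still lowest in their groups.

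**Figure D2:**
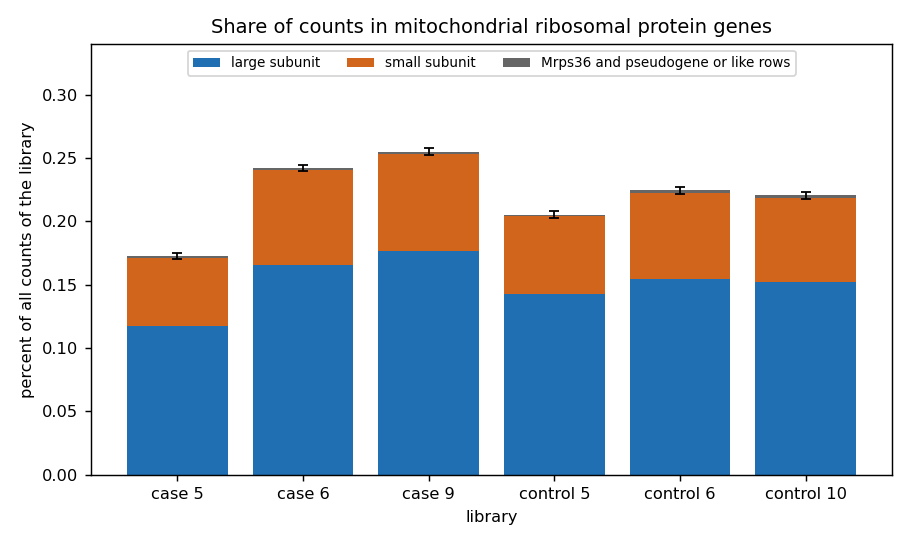
Share of each library's counts in the 74 genes (vertical axis, percent of all counts), stacked by subunit, with the 95% Wilson interval of the sum, which covers counting error only. The case libraries spread from 0.173% to 0.255% and enclose the control libraries, which lie between 0.205% and 0.224%.

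The balance of the subunits was close in all libraries. Small subunit counts were 46.2%, 45.0% and 43.3% of large subunit counts in case 5, 6 and 9. Control 5, 6 and 10 gave 42.8%, 43.9% and 44.0%. Case averaged 44.8% ± 1.44 and control 43.6% ± 0.626 (SD, n = 3 each), and their libraries overlapped. Case 5 and control 5, which were both low in total share, sat at opposite ends of this ratio.

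Case and control did not differ detectably in any member. In edgeR's quasi-likelihood test 0 of 70 members passed an adjusted p of 0.05, where the background over all 16066 tested genes was also 0% called, and 0 of 70 passed an unadjusted p of 0.05, against 4.15% of all genes. The DESeq2 test likewise called 0 of 70 members, with 0 at an unadjusted p under 0.05. The estimates were also small: 36 members were negative and 34 positive, the median log2 fold change was -0.01 beside -0.02 for all genes, and 68 of 70 lay within 0.5 log2 units of 0 (97.1%, against 85.1% of all genes). The median turned positive when libraries were scaled to DESeq2 size factors (0.01) or to their totals alone (0.04), so neither group can be called the higher. Counting error and spread left room for moderate changes, since the 95% interval stayed within 2-fold either way for 66 of 70 members (94.3%, against 63.6% of all genes) and passed it for Mrps10, Mrpl1, Mrpl33 and Mrpl30. All tested genes include genes with few counts, and no background matched by level was computed. The smaller estimates and narrower intervals therefore cannot be called particular to this family.

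**Figure D3:**
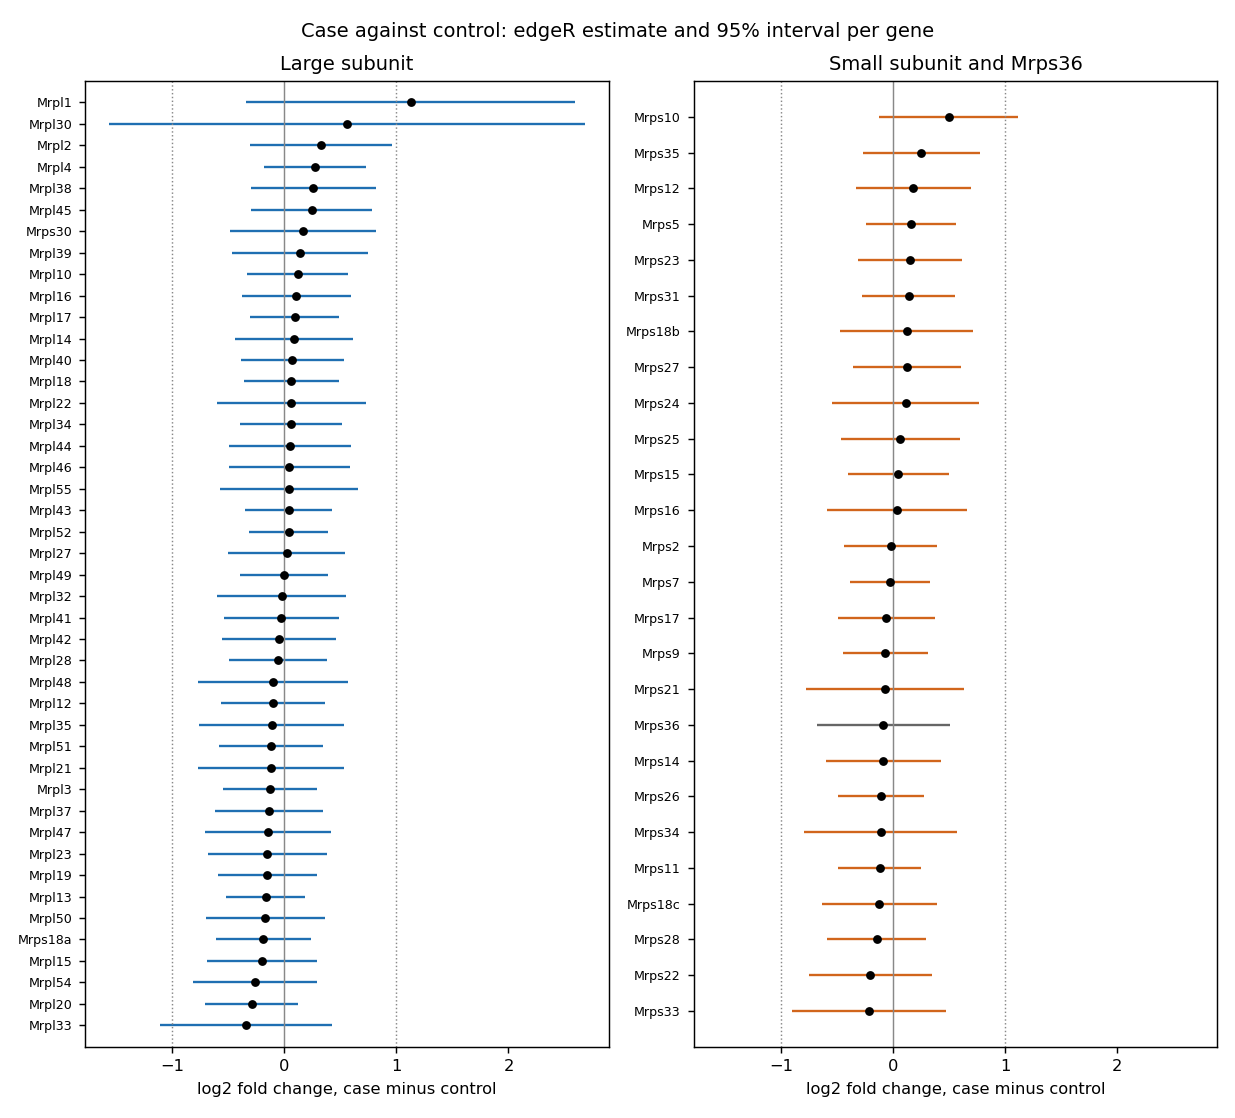
Log2 fold change, case minus control (horizontal axis), with its 95% interval, computed from the edgeR test, for each of the 70 tested members. Members are ordered by estimate within the large subunit (left) and the small subunit with Mrps36 in grey (right), and dotted lines mark 2-fold. Every interval crosses 0, and those of Mrpl1 and Mrpl30 are the widest.

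Both subunits, and the members listed with and without a bacterial counterpart, had medians close to 0. The large subunit had 22 negative and 22 positive members with a median of 0.01, and the small subunit had 13 negative and 12 positive with a median of -0.02. The 41 tested members with a bacterial counterpart had a median of -0.02 (22 negative, 19 positive). The 28 listed as found only in mitochondria had a median of 0.04 (13 negative, 15 positive). Mrps18a and Mrps18b were listed there, although their paralog Mrps18c was listed with a bacterial counterpart. In 2 of 70 members the case and control libraries did not overlap, while this held for 8.47% of all tested genes. Mrps10 was the 1 member higher in case, against 4.05% of all genes, and Mrpl20 the 1 member lower in case, against 4.42%, so the share of members was below the background.

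Mrps10, a protein of the head of the small subunit, had the smallest p of the family. Its level was 5.90, 7.96 and 6.87 CPM in case 5, 6 and 9 and 5.85, 4.32 and 4.56 CPM in control 5, 6 and 10. The lowest case library and the highest control library nearly touched, and both were numbered 5. Case averaged 6.91 ± 1.03 CPM and control 4.91 ± 0.824 CPM, a log2 fold change of 0.49 (SE 0.26) with an unadjusted p of 0.101 and an adjusted p of 0.999 in edgeR. These values rest on 50 to 120 counts per library.

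Mrpl20, a counterpart of the bacterial protein L20 that binds ribosomal RNA early in assembly of the large subunit, lay on the other side. It was at 32.0, 45.5 and 44.0 CPM in case 5, 6 and 9 and at 46.4, 55.2 and 47.1 CPM in control 5, 6 and 10. The gap between the groups, from 45.5 to 46.4 CPM, was narrow beside the spread within case. The log2 fold change was -0.29 (SE 0.18), with an unadjusted p of 0.144 and an adjusted p of 0.999 in edgeR.

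Among large subunit proteins with bacterial counterparts, Mrpl4, which lines the tunnel through which the new protein leaves, was at 38.2, 53.9 and 61.9 CPM in case 5, 6 and 9 and at 45.1, 41.6 and 40.9 CPM in control 5, 6 and 10. Its control libraries sat close together at 42.5 ± 2.21 CPM inside the range of the case libraries (51.3 ± 12.1 CPM), and the log2 fold change was 0.27 (SE 0.19). Mrpl2, whose protein lies near the catalytic centre, was at 11.6, 21.2 and 16.5 CPM in case and 10.5, 14.4 and 14.4 CPM in control. Its lowest library in each group was the one numbered 5, and the log2 fold change was 0.33 (SE 0.27). Mrpl13 was the tightest of the negative members named by p: it held 29.2, 30.5 and 37.7 CPM in case against 35.9, 36.6 and 37.0 CPM in control, with a log2 fold change of -0.17. Case 9 lay above all control libraries, so the groups overlapped.

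Mrpl33 ranged more widely than most. Its case libraries were at 23.3, 42.5 and 45.0 CPM and its control libraries at 29.2, 53.4 and 57.8 CPM. Within each group the library numbered 5 was low and the others were high, which left 36.9 ± 11.9 CPM in case against 46.8 ± 15.4 CPM in control and a log2 fold change of -0.34 (SE 0.33), the lowest estimate of the family. It was -0.07 without case 5 and -0.59 without control 5. Mrpl12, part of the stalk that recruits translation factors and reported to bind the mitochondrial RNA polymerase, was at 62.7, 87.0 and 104 CPM in case and 86.4, 99.2 and 86.9 CPM in control. Only case 5 was clearly low, and the estimate of -0.10 turned to 0.10 without that library.

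The large subunit proteins that exist only in mitochondria showed the same picture. Mrpl38, a protein of the central protuberance, was at 20.1, 25.9 and 30.7 CPM in case and 26.3, 16.4 and 21.3 CPM in control, a log2 fold change of 0.26. Mrpl54 was at 44.0, 62.5 and 69.8 CPM in case and 54.7, 87.9 and 68.2 CPM in control, a log2 fold change of -0.26. In both genes the spread within a group was wider than the distance between the group means. Mrpl44, which has a fold like that of RNase III, was nearly level between groups, at 17.7, 26.5 and 22.0 CPM in case and 16.2, 22.6 and 25.2 CPM in control (0.05). Mrps30 was at 9.96, 17.4 and 14.2 CPM in case and 10.9, 10.4 and 15.8 CPM in control (0.17), with overlapping groups.

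Mrpl49 was the steadiest member, with a range of only 0.13 log2 units over the 6 libraries. It held 13.9, 13.9 and 15.2 CPM in case and 14.6, 14.2 and 14.2 CPM in control, and its log2 fold change was -0.00. Ranges were under 1 log2 unit in 63 of 70 members, and the median range was 0.69 log2 units, against 0.81 for all tested genes. That background was not matched by level either. Mrpl49 was chosen for mention after its values were seen.

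In the small subunit, Mrps12, a protein of the decoding centre, was at 23.0, 32.7 and 35.1 CPM in case and 21.2, 29.8 and 29.2 CPM in control (log2 fold change 0.18). Mrps35 was at 19.1, 25.9 and 20.5 CPM in case and 14.1, 21.9 and 19.1 CPM in control (0.25). Both genes were lowest in control 5, with case 5 next for Mrps12. Mrps27, a pentatricopeptide repeat protein, departed from that order: its control libraries were at 22.0, 16.7 and 16.1 CPM with control 5 the highest of them, and its case libraries at 16.7, 22.8 and 20.2 CPM (0.12). Mrps28 was at 10.9, 11.9 and 13.7 CPM in case and 13.9, 12.6 and 14.0 CPM in control (-0.15). Mrps34 spread over 1.11 log2 units, with 20.5, 37.3 and 44.3 CPM in case and 30.4, 44.3 and 35.6 CPM in control (-0.11), and case 5 stood well below its other libraries.

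The Mrps18 paralogs encode related proteins that occupy different places: Mrps18a in the large subunit, Mrps18b and Mrps18c in the small. Mrps18a was at 43.3, 60.7 and 65.0 CPM in case and 59.3, 66.2 and 67.3 CPM in control, a log2 fold change of -0.19 (SE 0.18). Mrps18b was at 15.5, 23.4 and 29.6 CPM in case and 18.4, 21.1 and 23.3 CPM in control (0.12), and Mrps18c at 11.2, 15.9 and 14.2 CPM in case and 12.6, 17.0 and 15.3 CPM in control (-0.12). All 3 were lowest in case 5, and none passed the test. An ETS match was present in the window of each paralog, with a YY1 match added in Mrps18a and an NRF1 match in Mrps18b. Mrps36, the member outside both subunits, was at 14.1, 18.0 and 20.7 CPM in case and 13.4, 22.7 and 20.1 CPM in control (-0.09), and was low in the same libraries as the ribosomal proteins.

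A single library decided the value of Mrpl30, which encodes a counterpart of bacterial L30. It was counted 65, 144 and 102 times in case 5, 6 and 9 and 2, 112 and 75 times in control 5, 6 and 10. Control 5, at 0.175 CPM, fell below its floor of 0.276 CPM, whereas the other libraries held 5.18 to 9.55 CPM. This library alone made the log2 fold change of 0.56 (SE 0.91), which was -0.01 without it. Mitd1, which starts back to back with Mrpl30, was counted 77 times in control 5 and 86 to 121 times in the other libraries, so no such drop was seen in this neighbour. RefSeq names 9 pseudogenes or like copies of Mrpl30, more than for any other member. Whether reads were split among them in any library was not tested.

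Mrpl1, which forms the mobile stalk by the exit site for transfer RNA, was outside the naming rule for its low level and is described because of its estimate. It was counted 17, 56 and 49 times in case 5, 6 and 9 and 23, 6 and 19 times in control 5, 6 and 10. The groups overlapped through case 5, and control 6 was the lowest. The log2 fold change of 1.13 (SE 0.63) was the highest of the family, with a 95% interval from -0.34 to 2.60 and an unadjusted p of 0.113.

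The 4 members that were not tested were close to 0 everywhere. Mrpl36 was counted 0, 2 and 3 times in case and 1, 0 and 0 times in control, Mrpl53 once each in case 9 and control 6, and Mrps17-ps1 3 times in case 6, 2 times in control 6 and once in control 10. Mrps21l had 1 to 3 counts in every library. These levels lie at or under the floor of 3 counts, so no fold is given. RefSeq places Mrpl36 over Ndufs6, one of 18 members that overlap another gene, and names 44 pseudogenes or like copies after 24 members, so that counts of these members are uncertain where reads could be shared.

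The clearest order in the family was between libraries, not between groups. Relative to each gene's mean over the 6 libraries, the median member lay at -0.28 log2 units in case 5 and -0.18 in control 5, and at 0.09, 0.18, 0.12 and 0.06 in case 6, case 9, control 6 and control 10. Over all tested genes these medians stayed between -0.01 and 0.03. Case 5 held the lowest value of 40 members and control 5 that of 22, together 62 of 70 (88.6%), against 39.2% of all tested genes. In 44 of 70 members (62.9%) both libraries numbered 5 lay below the other 4, against 17.8% of all tested genes. The pattern was seen in the data first and is a description, with no test.

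**Figure D4:**
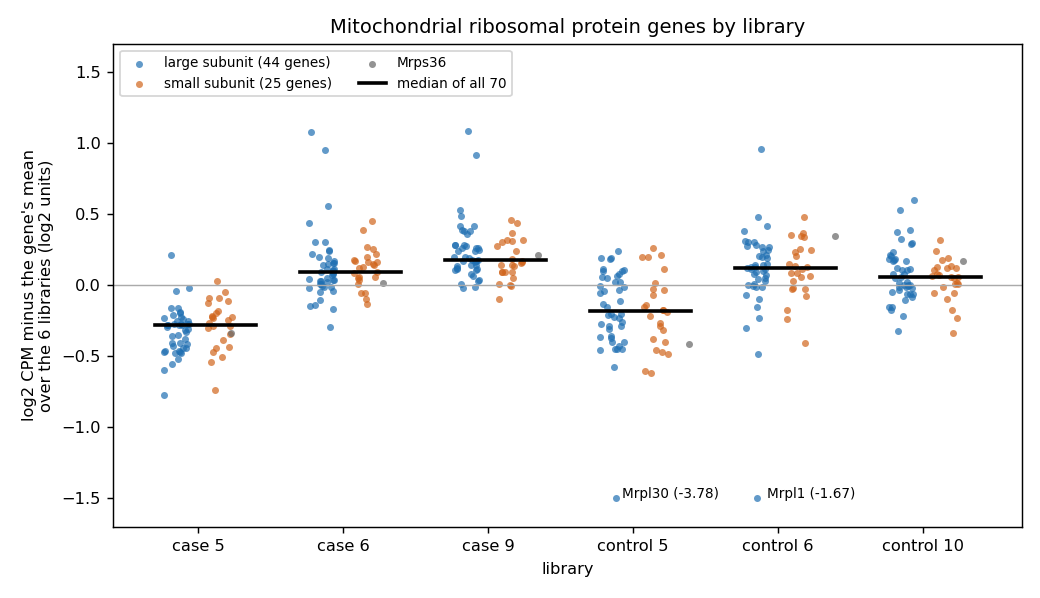
Log2 CPM of each of the 70 tested members minus its mean over the 6 libraries (vertical axis, log2 units), by library, with points for genes of the large subunit (blue), the small subunit (orange) and Mrps36 (grey), and black lines at the median; the points of Mrpl30 in control 5 and Mrpl1 in control 6 are drawn at -1.5 with their values beside them. Medians lie at -0.28 in case 5 and -0.18 in control 5 and above 0 in the other libraries.

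Both subunits shared this order. The large subunit had medians of -0.30 in case 5 and -0.18 in control 5, and the small subunit -0.24 and -0.18, while in the other 4 libraries the medians of both lay between 0.06 and 0.20. The 8 members that were not lowest in a library numbered 5 were Mrpl1, Mrpl38, Mrps10 and Mrps2, lowest in control 6, Mrpl40 and Mrps27, lowest in control 10, and Mrpl42 and Mrpl49, lowest in case 6. No member was highest in case 5 and 5 were highest in control 5, whereas case 9 was highest for 24 and control 6 for 20. With both libraries numbered 5 left out, an alternative chosen after seeing the data, 22 of 70 members were negative, the median log2 fold change was 0.08 and 0 members passed the adjusted threshold in edgeR, with 6 of 70 at an unadjusted p under 0.05, against 2294 of all 16298 genes in that fit.

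Markers of several cell types differed between the same libraries. Neutrophil and myeloid precursor markers summed to 8767 CPM in case 5, to 6791 CPM in control 5 and to 15909.6 to 19855 CPM in the other 4 libraries. All 9 were in the table and 8 were tested; Ltf was at 0 in all libraries but case 5, and Mpo, which defines neutrophil precursors, had 1389 CPM in case 5, 843 CPM in control 5 and 1111 to 2470 CPM elsewhere. Osteoclast markers (7 of 8 in the table) summed to 4261 CPM in case 5, to 4241 CPM in control 5 and to 5829 to 7782 CPM in the rest. Skeletal muscle markers (12 of 12) summed to 172 and 11.3 CPM, against 471 to 1645 CPM. These sums rest on a few abundant genes such as S100a9 and Ctsk. Gene by gene, both libraries numbered 5 lay below the other 4 in 10 of 12 tested muscle markers. This held for 4 of 8 tested neutrophil and 3 of 7 tested osteoclast markers, against 17.8% of all tested genes. Mpo in case 5 exceeded control 10, and Mmp9 in case 5 (1281 CPM) exceeded case 9 (1248 CPM).

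The sum of tooth-forming cell markers (8 of 8 in the table) went the other way. It was 458 CPM in case 5, 89.6 CPM in control 5 and 0.638 to 7.77 CPM in the rest. Enam, an enamel matrix gene, was at 0 in the other 4 libraries. Some markers departed from this order. For Amelx, control 5 (0.611 CPM) lay below control 6 (3.38 CPM). For Mmp20, control 5 (0.262 CPM) lay below case 9 (0.503 CPM) and control 6 (0.707 CPM). For Odam, case 5 (2.47 CPM) was close to case 6 (2.26 CPM). Proliferation markers (10 of 10) summed to 939 and 872 CPM in the libraries numbered 5 and to 569 to 782 CPM in the rest. This sum rested much on Mki67 (288 CPM in case 5 and 263 CPM in control 5, 103 to 171 CPM in the rest), while Cdk1 was lowest in case 5 and Birc5 lowest in control 5. Erythroid markers did not follow the numbers, with 1423 CPM in case 6 and 5064 to 16051 CPM in the others, and neither did B cell markers (57.5 to 222 CPM) or adipocyte markers (27.2 to 247 CPM). The part of any of these cell types in the order of the libraries was not tested.

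Some proteins of the same ribosome carry other spellings or names in the table. The genes spelt mrpl9, mrpl11 and mrpl24 in lower case had log2 fold changes of -0.09, -0.06 and -0.20, Mrp63 (now Mrpl57) 0.03, and Ict1 (now Mrpl58), a peptidyl-tRNA hydrolase built into the large subunit, -0.08. Ict1 was at 29.8, 36.6 and 40.2 CPM in case and 27.6, 47.7 and 37.2 CPM in control, and mrpl11 at 16.1, 21.9 and 23.1 CPM in case and 18.8, 24.2 and 20.6 CPM in control. Both were lowest in a library numbered 5 in each group. Dap3, a protein of the small subunit that binds GTP and is also linked to cell death, was at 56.3, 64.0 and 65.7 CPM in case and 56.0, 56.8 and 56.1 CPM in control (0.14). Chchd1 had a log2 fold change of -0.27, Aurkaip1 -0.08, Gadd45gip1 -0.05 and Ptcd3 0.02, and in all 10 of these genes the groups overlapped, with an adjusted p of 0.999 in edgeR.

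Lists of the wider pathway were read from the same fit, and 0 of their 205 tested genes passed the adjusted threshold in edgeR, with 8 at an unadjusted p under 0.05, near the 4.15% of all tested genes. Among genes that assemble the ribosome or modify its RNA, 10 of 27 were negative and 17 positive, with a median of 0.06. Rbfa, which helps the small subunit mature, was at 28.8 ± 2.41 CPM in case against 23.2 ± 2.33 CPM in control, a log2 fold change of 0.31 with an unadjusted p of 0.0862, and its groups did not overlap. Rpusd4, a pseudouridine synthase of ribosomal RNA, had a log2 fold change of 0.38. Translation factors had 11 negative and 6 positive genes and a median of -0.08, with the initiation factors Mtif2 at -0.23 and Mtif3 at 0.20.

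Mitochondrial aminoacyl-tRNA synthetases, which charge transfer RNAs with amino acids, had mostly positive estimates, none past the threshold: 4 were negative and 12 positive, and the median of 0.16 stayed between 0.09 and 0.34 in all alternatives run. Tars2, the threonyl-tRNA synthetase, was at 53.5 ± 4.31 CPM in case against 44.6 ± 6.46 CPM in control, a log2 fold change of 0.26. The order of the libraries differed from that of the ribosomal proteins, since the median synthetase lay at 0.03 in case 5 and 0.13 in control 5 and lowest in control 6 (-0.20). Genes of mitochondrial DNA transcription and replication had 2 negative and 9 positive members with a median of 0.17 (0.04 to 0.35 over the alternatives). Polrmt, the mitochondrial RNA polymerase, was at 24.0, 26.6 and 22.1 CPM in case and 21.9, 14.4 and 13.8 CPM in control. The groups did not overlap but case 9 and control 5 nearly met, and the log2 fold change was 0.54 (SE 0.22) with an unadjusted p of 0.0457 and an adjusted p of 0.999. The helicase gene Twnk, listed as Peo1, had a log2 fold change of -0.17.

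The messenger RNAs that this ribosome translates had mostly negative estimates. Of 13 mitochondrially encoded mRNAs, 12 had a negative estimate (92.3%, against 53.7% of all tested genes) and 1 a positive one. Their median was -0.44 (-0.55 to -0.27 over the alternatives), and none passed the adjusted threshold. The count of signs is a description, and whether these mRNAs vary separately was not tested. ATP8, a subunit of ATP synthase, was at 706, 591 and 799 CPM in case and 2253, 854 and 1013 CPM in control. Control 5 was far above the rest, and the log2 fold change was -0.97 with an unadjusted p of 0.0360. ND3, a complex I subunit, was at 214 ± 27.8 CPM in case against 293 ± 56.4 CPM in control (-0.45). By library these mRNAs were lowest in case 6 (-0.42) and highest in control 5 (0.32), so control 5 was low for the ribosomal proteins and high for these templates. Case 5, however, was low for both, at -0.26 for these mRNAs, and control 10 was also high for them (0.27). Whether these mRNAs and the polymerase or synthetase genes move together was not tested.

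Regulators of mitochondrial biogenesis had 4 negative and 5 positive genes with a median of 0.05, which was -0.06 without control 6. Among them Gabpb1 and Gabpa, the subunits of GABP, had log2 fold changes of 0.24 and -0.15. General markers of mitochondrial content had 5 negative and 10 positive genes and a median of 0.03, which was -0.06 without case 9. Tomm40, the import pore, was at 49.6 ± 9.48 CPM in case against 41.9 ± 3.22 CPM in control (0.24), and Vdac1, a pore of the outer membrane, had a log2 fold change of -0.20. Like the ribosomal proteins, 10 of these 15 genes were lowest in a library numbered 5.

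Cytosolic ribosomal proteins showed the order of the libraries at greater width. Of 92 tested genes, 86 were lowest in a library numbered 5 (93.5%), in 72 both such libraries lay below the other 4 (78.3%), and the medians were -0.40 in case 5 and -0.39 in control 5 against 0.08 to 0.28 elsewhere. Their median log2 fold change was -0.15 with 66 negative and 26 positive genes, and it was 0.01 without case 5 and -0.33 without control 5. Rpl13 (-1.06) and Rps19 (1.11) had the smallest p of this list, in opposite directions, and genes of this family have many near-identical copies that make their counts uncertain.

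**Figure D5:**
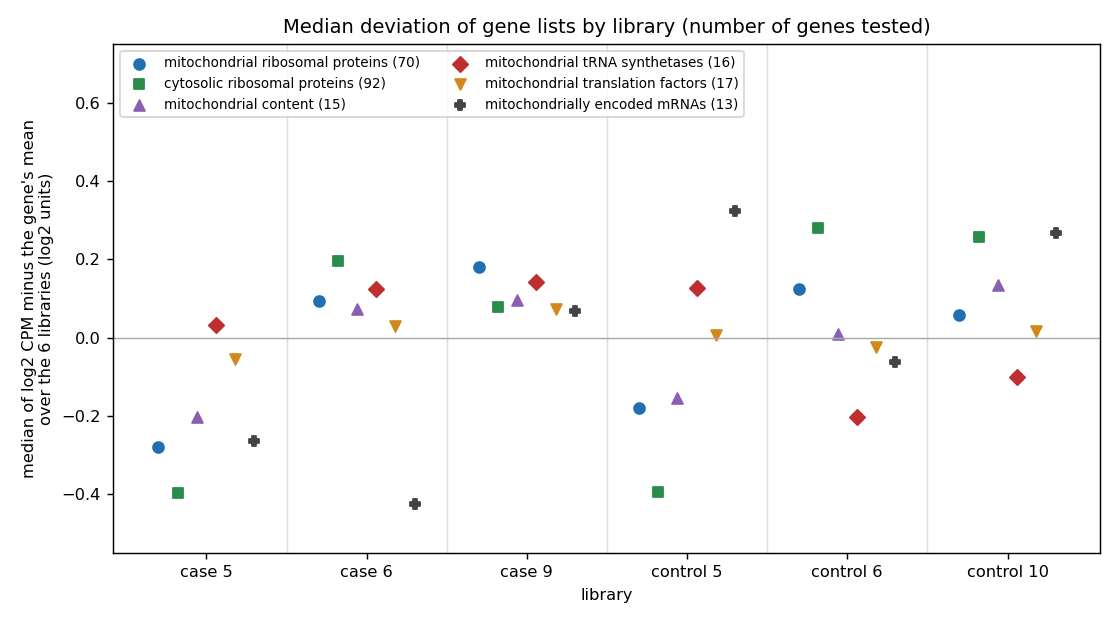
Median of log2 CPM minus each gene's mean over the 6 libraries (vertical axis, log2 units) for 6 gene lists by library, with one marker per list and the number of genes tested in the legend. Mitochondrial and cytosolic ribosomal proteins and the content markers lie below 0 in case 5 and control 5, where the tRNA synthetases lie at 0.03 and 0.13, and the mitochondrially encoded mRNAs are highest in control 5 at 0.32.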

How the data were processed

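Per the labels' protocols, TRIzol was used to extract total RNA and the Ion Total RNA-Seq Kit v2.0 to prepare single-end libraries. The authors deposited raw counts, whole numbers by gene symbol, in 1 table of 6 libraries. The aligner, counter, genome build, annotation and strand setting were not given in the sources used here, so reads of near-identical copies and of overlapping or antisense genes cannot be told apart. Columns were matched to libraries by title, and 0 columns were unused. No libraries were duplicates: chi-square per degree of freedom was at least 26.6 for every pair.

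Genes were filtered with filterByExpr (16066 kept, 11182 had no count), scaled by TMM (factors 0.928 to 1.05) and tested in R 4.3.3 with edgeR 4.0.16 (glmQLFit and glmQLFTest), group as the only term, Benjamini-Hochberg over all tested genes, threshold 0.05. The common biological coefficient of variation was 0.322. CPM uses TMM-scaled totals, except for the floor, which uses library totals, and log2 CPM a prior count of 2. Errors are SD over 3 libraries per group unless marked SE. Intervals of shares are Wilson intervals, and they and the floor of 3 counts cover counting error only. The fit was also run on counts simulated from its own means and dispersions, so that simulation cannot show whether the model suits these data.

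Members named in the text were, on each side, the 5 with the smallest p, a fixed list (Mrpl11, Mrpl12, Mrpl44, Mrpl58, Mrps12, Mrps18a, Mrps18b, Mrps18c, Mrps27, Mrps28, Mrps30, Mrps34, Mrps36), the 3 with the widest range of log2 CPM and those with a 0 in any library; the choices by p and by range were limited to those whose mean reached 5 CPM. In pathway lists the 2 with the smallest p were named, except for 1 gene that is not reported here. A further part of the rule, levels per coding length, was not applied, since no protein lengths were used here, so levels of different genes are not ranked. Members and lists were chosen with earlier results of these data known. RefSeq tables (GRCr8) matched 73 members by symbol and served for names, neighbours and promoter windows only, not to place counts. DESeq2 1.42.0, other scalings, other filters, a replicate block and leaving out libraries were the alternatives.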

Additional observations from a re-analysis of the deposited data

How the results depend on the processing

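With 3 libraries a group, one library moved most values. No member passed the threshold in any alternative, and 13 of 21 named members kept their sign in all of them. Of 168 values of named members in alternatives other than leaving out one library, 3 changed sign: Mrps18b (-0.049 with the replicate block), Mrpl12 (0.078) and Mrps34 (0.068), both without the 2 libraries numbered 5. Leaving out one library at a time changed 12 of 126, with ranges of -0.28 to 0.10 for Mrpl12, -0.35 to 0.18 for Mrps34, -0.11 to 0.37 for Mrps18b, -0.0070 to 1.17 for Mrpl30, -0.11 to 0.22 for Mrpl44, -0.24 to 0.034 for Mrps18c, -0.033 to 0.41 for Mrps30 and -0.28 to 0.10 for Mrps36. Members that kept their sign also moved, such as Mrpl33 (-0.59 to -0.07), Mrpl20 (-0.38 to -0.12) and Mrps10 (0.38 to 0.64). Negative members numbered 36, but 10 without case 5, 21 without control 6, 49 without case 9 and 22 without both libraries numbered 5. Over single libraries left out, medians ran from -0.11 to 0.15 for all members, from -0.12 to 0.15 for the large and from -0.10 to 0.18 for the small subunit. Over all genes, 0 passed in edgeR (666 at an unadjusted p under 0.05), 21 with the DESeq2 test (739) and 2 without control 5, the range over single libraries being 0 to 2. Without abundant genes in the total, shares were 0.221%, 0.284% and 0.301% in case 5, 6 and 9, and in control 5, 6 and 10 they were 0.255%, 0.280% and 0.280%. The groups share the numbers 5 and 6, which the labels do not call pairs, and deviations correlated at 0.38 for number 5 and 0.14 for number 6. With the replicate block 0 genes (653 unadjusted) and 0 members passed. In that fit 45 members were negative and medians were -0.06 for members, -0.10 for the large and -0.03 for the small subunit. Case 9 and control 10 share their number with no other library. The group estimate with the block therefore came only from the libraries numbered 5 and 6. The planned comparison of levels per coding length was not run.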
